A study of Mus musculus with 12 samples.

Results

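Lymphoma cells that arose in NPM-ALK transgenic mice (ALK) were compared with thymocytes of NPM-ALK transgenic mice that lack Dnmt1 in T cells (ALKKO), gene by gene, in 6 of the 12 RNA samples of the study. The samples were taken by their labels, 3 ALK and 3 ALKKO mice, and the 3 control (Ctrl) and 3 Dnmt1-deleted (KO) mice without the transgene served as reference. The labels give the ALK genotype as NPM-ALK+ and the ALKKO genotype as NPM-ALK+, DNMT1 fl/fl CD4-CRE, so that both groups carry the transgene and the loxP-flanked Dnmt1 gene and the Cre recombinase are listed for ALKKO alone. Ctrl mice are DNMT1 fl/fl and KO mice DNMT1 fl/fl CD4-CRE. All 6 compared mice were male, aged 24, 22 and 31 wk in ALK and 25, 21 and 19 wk in ALKKO. The Ctrl mice were 20 to 25 wk old and the KO mice 20 to 21 wk.

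Both the human NPM-ALK fusion and Cre are driven by Cd4 regulatory elements, which become active in developing T cells of the thymus, and cells that do not use these elements keep Dnmt1. RNA came from homogenized tissue, labelled as lymphoma cells in ALK and as thymocytes in ALKKO. Loss of Dnmt1, transformation and the kind of tissue change together between the groups, and their shares cannot be told apart in this comparison. In such bulk samples, fewer cells of a type and less RNA per cell cannot be told apart either.

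NPM-ALK joins the oligomerization domain of nucleophosmin to the kinase domain of ALK, which makes the kinase constantly active and feeds STAT3, PI3K and MAPK signaling. DNMT1 copies DNA methylation onto the new strand after replication, and without it methylation is diluted as cells divide. Thymocytes pass from a CD4-CD8- double-negative stage, where Notch1 drives commitment and growth and the pre-T-cell receptor is made, to a CD4+CD8+ double-positive stage, where the T-cell receptor α chain is rearranged and cells are selected.

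Reads counted on genes numbered 12473857 to 14758001 per ALK library and 14914012 to 16735044 per ALKKO library. Of the 50600 gene IDs listed, 16052 had enough reads to be tested. Levels are given as CPM, read counts scaled to the library total after TMM normalization, and 3 reads, taken as the floor of detection, equal 0.203 to 0.24 CPM in ALK and 0.179 to 0.201 CPM in ALKKO. A gene was called where edgeR's quasi-likelihood test gave a Benjamini-Hochberg adjusted p under 0.05 and the log2 fold change of ALK against ALKKO was beyond 1 in either direction. Each ± is a standard error of a log2 fold change, with 3 mice per group. One reference library stands apart: KO2, the only female mouse, held 11900 CPM summed over B-cell markers, against 1247 to 1715 CPM in the Ctrl libraries, and 586 CPM over thymic epithelial markers, against 4060 to 5180 CPM. It is no part of the contrast but enters the estimate of the spread, and 3654 genes were called without it.

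Reads counted on Alk did not separate the groups. A similar Alk level was known when the comparison was set. Whether reads of the human fusion count fully toward mouse Alk cannot be told from gene counts. Alk, where counted reads of the fusion's kinase part would fall, stood at 34.9, 50.3 and 54.4 CPM in the 3 tumors and at 49, 54.8 and 55 CPM in the 3 ALKKO thymi, against 0.107 to 0.431 CPM without the transgene. The groups overlapped, and the log2 fold change was -0.19 ± 0.31 (edgeR adjusted p = 0.679). Dnmt1 stood at 788, 624 and 379 CPM in the tumors and at 205, 222 and 244 CPM in the ALKKO thymi. All tumors lay above all ALKKO thymi, by 1.42 ± 0.23 on the log2 scale (edgeR adjusted p = 0.00214). The KO thymi held 206 to 244 CPM and the Ctrl thymi 400 to 487 CPM, and counts per gene do not separate the deleted exons from the rest of Dnmt1.

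Between lymphoma cells and ALKKO thymocytes 3145 genes were called, 19.6% of those tested. Of these, 1129 genes (7.03% of those tested) were higher in ALK and 2016 (12.6%) were lower. Counts of called genes in the gene lists that follow are to be read beside these shares. The falls were also the larger changes: 504 genes were lower by more than 5 on the log2 scale, against 57 that were higher by as much. In 645 of the genes called lower all 3 tumors were at or under the floor of 3 reads, and in 15 of the genes called higher all 3 ALKKO thymi were. The 3 values of one group lay above the 3 of the other in 2973 of the called genes (94.5%), compared with 43.2% of all genes tested, and all tumors lay above all ALKKO thymi in 19.5% of those tested. The median log2 fold change over all tested genes was 0.03. With upper-quartile scaling that median was -0.08, and 892 genes were called higher and 2146 lower. Genes at the floor in every tumor can pass the read filter through thymus libraries, and such genes can be called only as lower. With at least 10 counts required in every library, 756 genes were called higher and 775 lower.

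**Figure D1:**
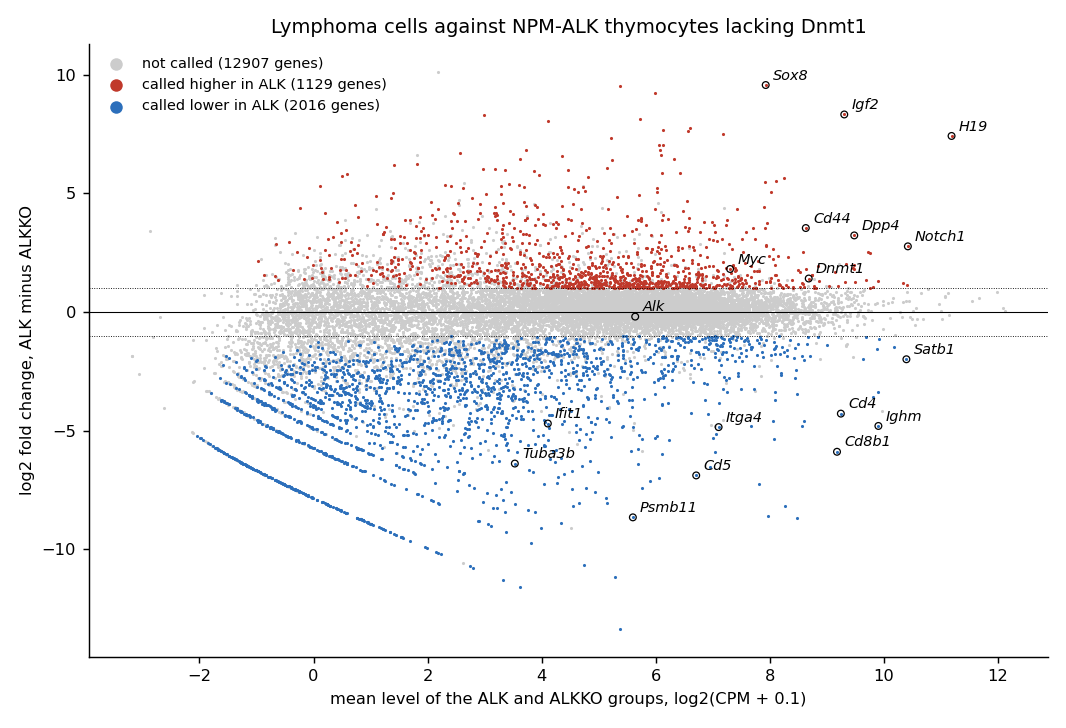
Each point is 1 of the 16052 tested genes, with the mean level of the ALK and ALKKO groups as log2(CPM + 0.1) on the x axis and the edgeR log2 fold change of ALK against ALKKO on the y axis. Of the colored points 1129 are genes called higher in ALK and 2016 genes called lower, and circles mark named genes. The lower side of the plot is deeper, since 504 falls and 57 rises exceed 5 on the log2 scale. Genes at the floor in every tumor can pass the read filter through thymus libraries and can then be called only as lower.

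The lymphomas were less alike than the thymi. Over 11784 genes of at least 5 CPM, the median SD of log2 CPM among the 3 libraries was 0.381 in ALK and 0.168 in ALKKO, and the SD was larger in ALK for 79.6% of these genes. Among genes of at least 5 CPM in either group, 704 had a tumor at 4 or more times the highest ALKKO value: 427 of them in 1 tumor, 227 in 2 tumors and 50 in all 3 (7.1%). In the other direction, 1634 genes had a tumor at 1/4 or less of the lowest ALKKO value, 702 in 1 tumor, 492 in 2 and 440 in all 3 (26.9%). The shares for gains and losses are not like for like. A gain can pass the limit of 5 CPM through 1 high tumor, whereas a gene low in all 3 tumors passes through the ALKKO mean. Of the gains found in 2 tumors, 164 were in ALK2 and ALK3, 48 in ALK1 and ALK2 and 15 in ALK1 and ALK3.

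Markers of other cell types moved with the comparison, and their part in the results that follow was not tested. Of 16 thymic epithelial markers, 10 were called lower and none higher (median log2 fold change -3.31), and their summed level was 209 to 976 CPM in ALK and 2998 to 3118 CPM in ALKKO. Prss16, a protease of the thymic cortex, stood at 0.739, 2.88 and 2.81 CPM in the tumors and at 700, 549 and 599 CPM in the ALKKO thymi, and Psmb11, a proteasome subunit of cortical epithelium, at 0.0672, 0.349 and 0.313 against 103, 83.3 and 103 CPM. Both were under 3 CPM in every tumor, whereas the epithelial genes Krt14 and Epcam overlapped between the groups and were not called. The count of 10 was 6 without ALK2, ALKKO1 or ALKKO3. B-cell markers (7 of 18 called lower, 3 or 4 when any ALK or ALKKO library was left out and 16 without KO2, median -3.65) summed to 43.6 to 168 CPM in ALK and 1309 to 3070 CPM in ALKKO. Genes of MHC class II presentation (7 of 13 called lower, median -2.80) summed to 453 to 765 against 3744 to 4034 CPM, led in size by the invariant chain Cd74, at 61.4, 120 and 236 against 1794, 1592 and 1557 CPM. Macrophage and dendritic cell markers (5 of 20 called lower, 2 without ALK2 and 8 without ALK3, median -0.37) summed to 586 to 1477 against 1145 to 1264 CPM, with the macrophage genes C1qa, C1qb and Adgre1 not called and the dendritic cell genes Ccl22 (-6.29) and Xcr1 (-3.72) lower.

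Connective tissue markers went the other way in part. Of 20 markers of fibroblasts and endothelium, 4 were called higher (Col1a1, Col1a2, Col3a1 and Acta2) and 2 lower (Dcn and Pi16), at a median of 0.36 and sums of 1688 to 2937 CPM in ALK and 592 to 1398 CPM in ALKKO. Col1a1, a collagen chain, stood at 702, 381 and 243 CPM in the tumors and at 15.9, 78.5 and 19.5 CPM in the ALKKO thymi, so the groups did not overlap. Without ALKKO1 or without ALKKO3 none of these genes was called higher. Of 16 granulocyte markers 7 were called lower (2 without ALK2; median -3.44; sums 17.4 to 84 against 56.1 to 103 CPM), of 13 markers of NK and innate T cells 6 (median -3.34; 59.2 to 343 against 255 to 316 CPM) and of 13 markers of heart muscle and fat 1 (median -2.83; 26.4 to 211 against 104 to 2141 CPM), with none higher. Of 9 erythroid markers (median -2.01; 249 to 1074 against 276 to 2011 CPM), Car2 and Epb42 were called lower and Tfrc higher. Tfrc, the transferrin receptor of iron-importing cells at large, stood at 871, 222 and 208 against 115, 90.1 and 125 CPM and was highest in ALK1, without which its log2 fold change was 0.98, under the threshold; the call was also lost without ALKKO2.

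Immunoglobulin segments made up much of the deepest falls. Of 147 tested immunoglobulin V segments 105 were called lower and none higher, and in 101 of them all tumors were at or under the floor. Those at the floor in every tumor passed the read filter through thymus libraries alone, so they could be called only as lower. Of the 8 genes with the largest falls, among called genes of at least 5 CPM without overlap, 6 were immunoglobulin V segments (Ighv5-9, Ighv7-3, Igkv10-94, Igkv4-68, Igkv16-104 and Igkv14-126), each with most of its reads in 1 ALKKO thymus, as for Ighv5-9 at 0.666, 245 and 1.6 CPM. Ighm, the IgM heavy chain, stood at 56.4, 23.3 and 120 CPM in the tumors and at 965, 2644 and 1932 CPM in the ALKKO thymi. The other two of the 8 were shared by the thymi: Shisa6 stood at 14.7, 12.4 and 14.2 CPM in ALKKO and at 0 in every tumor, at least 59.1-fold lower, and Serpinb1c at 10.2, 10.1 and 7.22 CPM and 0, at least 39.5-fold lower.

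Among called genes of at least 5 CPM whose groups did not overlap, those that rose most were Igf2, Adamts20, Myrfl, Fbp1, H19, Osbp2, Ror2 and Spp1. Igf2, a fetal growth factor, lies near the long non-coding RNA H19 at an imprinted locus of chromosome 7 (GRCm38, chr7:142650766-142666816 and chr7:142575529-142578143), where the paternal copy normally gives Igf2 and the maternal copy H19. Igf2 stood at 7.66, 3571 and 202 CPM in ALK1, ALK2 and ALK3 and at 2.6, 6.94 and 2.17 CPM in the ALKKO thymi. H19 stood at 185, 11790 and 1904 CPM in the same tumors and at 24, 41.5 and 15.4 CPM in the thymi. Both were highest in ALK2 and next highest in ALK3, and in ALK1 Igf2 lay just above the highest ALKKO thymus. The log2 fold changes were 8.33 ± 1.83 for Igf2 (edgeR adjusted p = 0.00856) and 7.42 ± 1.62 for H19 (edgeR adjusted p = 0.00819). Without ALK2 they were 4.72 and 5.26 and stayed called. With only the ALK and ALKKO libraries fitted, Igf2 lost its call (8.36, edgeR adjusted p = 0.0542) and H19 kept it. Of 26 tested imprinted genes 3 were called higher (Igf2, H19 and Dlk1) and 2 lower (Peg3 and Peg10), at a median of 0.26. These are 11.5% higher and 7.69% lower, against 7.03% and 12.6% of all tested genes.

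Several of the other leading rises were shared by all tumors. Spp1, the secreted matrix protein osteopontin, stood at 56.3, 222 and 122 CPM in the tumors and at 1.03, 0.957 and 1.53 CPM in the thymi (6.82 ± 0.64, edgeR adjusted p = 0.000189). Adamts20, a secreted metalloprotease, stood at 100, 24.5 and 192 against 0.182, 0.419 and 0.511 CPM. Ror2, a receptor for Wnt ligands, stood at 36.9, 167 and 214 against 0.363, 1.97 and 0.766 CPM. For all 3 the lowest tumor was far above the highest thymus. Myrfl stood at 12.6, 335 and 216 against 0.969, 0.598 and 1.28 CPM and Osbp2, an oxysterol-binding protein, at 20.6, 171 and 30.1 against 0.484, 0.538 and 0.319 CPM. Fbp1, a gluconeogenic enzyme, stood at 26.1, 802 and 30.6 against 1.03, 2.99 and 0.639 CPM; ALK2 held most of it, and without ALK2 the log2 fold change of 7.51 became 4.17. By gain in CPM, the list was led by H19, Notch1, Igf2, Cct8, Sft2d2 and Dpp4. Dpp4, the surface peptidase CD26, stood at 148, 1806 and 1914 against 142, 127 and 143 CPM, so that ALK1 was near the thymus level. Cct8, a chaperonin subunit, stood at 354, 2538 and 1500 against 240, 295 and 248 CPM, and Sft2d2 at 87.9, 2238 and 1994 against 281, 232 and 240 CPM, with ALK1 below every thymus.

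**Figure D2:**
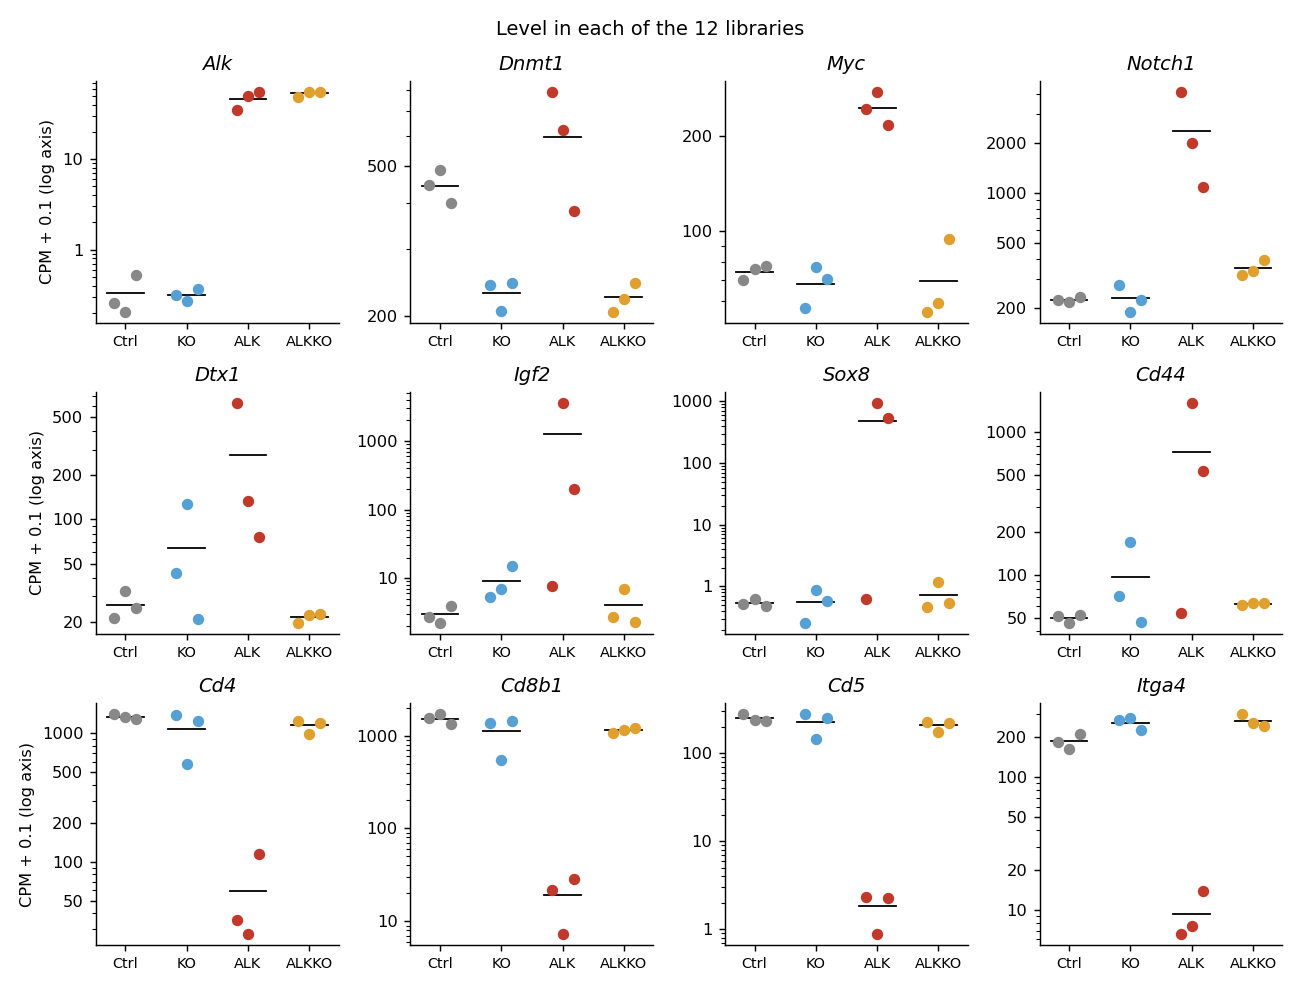
CPM + 0.1 of 12 genes in each of the 12 libraries, on log axes, with 1 point per library and a line at the mean of each group of 3. Alk overlaps between ALK and ALKKO; Igf2, Sox8 and Cd44 are high in ALK2 and ALK3 and near the thymus level in ALK1, while Cd4, Cd8b1, Cd5 and Itga4 are low in all 3 tumors.

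Part of the Notch pathway rose. Notch1, the receptor that commits progenitors to the T lineage (GRCm38, chr2:26457903-26516663), stood at 4087, 1994 and 1084 CPM in the tumors and at 320, 336 and 393 CPM in the ALKKO thymi (2.77 ± 0.40, edgeR adjusted p = 0.00133). Dtx1, a Notch target that encodes a ubiquitin ligase, stood at 624, 133 and 75.3 against 19.6, 22.2 and 22.6 CPM. Nrarp, a target that feeds back on the Notch complex, stood at 51.8, 306 and 36.7 against 8.35, 7.48 and 7.54 CPM. For all 3 every tumor lay above every ALKKO thymus, with Notch1 and Dtx1 highest in ALK1 and Nrarp in ALK2. The target genes Hes1 and Heyl, the coactivator Maml3 and Ptcra, the pre-T-cell receptor α chain, were also called higher, which makes 7 of 26 tested members. The 1 member called lower was Dll4, the Notch ligand of thymic epithelium, at 4.5, 2.27 and 3.05 against 10.9, 15.7 and 14.4 CPM. The median over the list was -0.10, or 0.13 without ALK1, and Notch2 and Rbpj were not called. Hes1 (44, 26.5 and 14.2 against 6.96, 10.8 and 13.6 CPM) lost its call without ALK1, at 0.98, and without ALKKO1 or ALKKO2, and Heyl without ALK1, at 1.61, or any 1 ALKKO library. Ptcra (424, 142 and 32.5 against 26.8, 45.5 and 46.8 CPM, groups overlapping) was not called in 17 of 22 other settings, with a log2 fold change of 1.16 without ALK1. In all, 4 members were called higher without ALK1, ALKKO1 or ALKKO2.

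Myc, which drives ribosome production and growth and is a Notch1 target in T-cell leukemia, stood at 244, 276 and 217 CPM in the tumors and at 55.6, 59.1 and 94.2 CPM in the ALKKO thymi (1.82 ± 0.21, edgeR adjusted p = 0.000512). The tumors were close together and above every thymus. Of 14 tested members of the MYC and MAX network Myc was the one called higher, the relative Mycl (-2.81) and the antagonist Mxd4 (-1.52) were called lower, and the median was -0.19. The shares called, 7.14% higher and 14.3% lower, were near the 7.03% and 12.6% of all tested genes. Genes of ribosome biogenesis had the largest share called higher of the 36 lists examined, with 27 of 39 (69.2%), none lower and a median of 1.13. Ncl, the nucleolar protein nucleolin, stood at 1659, 2222 and 1553 against 761, 795 and 760 CPM (1.23 ± 0.16, edgeR adjusted p = 0.00089). Gnl3, a nucleolar GTPase, stood at 150, 177 and 152 against 47.1, 51.3 and 56.9 CPM (1.62 ± 0.17, edgeR adjusted p = 0.000299). In both the 3 tumors lay above every thymus. Mybbp1a, Npm1, Gar1 and Nob1 rose by 1.55, 1.57, 1.33 and 1.24 on the log2 scale. These rises are close to the threshold of 1: with edgeR's glmTreat, which tests against that threshold itself, 3 of the 39 were called.

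Genes of growth metabolism rose as well. Of 24 tested genes of glucose uptake and glycolysis 12 were called higher and none lower, at a median of 1.19. Pkm, pyruvate kinase, stood at 1252, 947 and 918 CPM in the tumors and at 225, 341 and 201 CPM in the ALKKO thymi (2.02 ± 0.24, edgeR adjusted p = 0.000581). Tpi1, Eno1, Ldha, Gpi1 and the lactate exporter Slc16a3 rose by 2.15, 1.77, 1.27, 1.21 and 3.69 on the log2 scale. The glucose transporter Slc2a1 stood at 74.9, 45.5 and 39.5 against 31.7, 31.9 and 27 CPM, without overlap, but did not pass the test (0.82, edgeR adjusted p = 0.0576). Of 30 genes of serine, folate and amino acid supply 9 were called higher and 1 lower, at a median of 0.72. Slc7a5, an importer of large neutral amino acids, stood at 222, 320 and 166 against 58.4, 51 and 54.4 CPM, and Shmt2, the mitochondrial serine enzyme, at 291, 245 and 206 against 98.1, 104 and 98 CPM. The fall was that of the cystine importer Slc7a11, from 150, 130 and 91 CPM in the thymi to 3.29, 1.31 and 4.61 CPM in the tumors (-5.32 ± 0.56, edgeR adjusted p = 0.000337). Phgdh and Asns, which make serine and asparagine, were called higher (1.27 and 1.81), and both calls were lost when ALK3 or any 1 ALKKO library was left out.

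Cell cycle genes changed less. All 40 tested genes of DNA replication and mitosis had a log2 fold change above 0 (median 0.51), and 5 of them (12.5%) were called higher, among them Mcm6, Cdc6, Gins2 and Tk1. That count turned on single libraries, with 13 called higher without ALK3 and 0 without ALK2 or without ALKKO1. Mki67, which marks cycling cells, stood at 1577, 1380 and 590 CPM in the tumors and at 846, 871 and 835 CPM in the ALKKO thymi, with ALK3 below every thymus, and was not called. Of 20 G1 cyclins, CDKs and CDK inhibitors 4 were called higher (Cdk4, E2f3, Cdkn2c and Cdkn2a) and 2 lower (Ccnd2 and E2f2), at a median of 0.47, and 0 were called higher without ALK2. Cdk4, a G1 kinase, stood at 407, 535 and 423 against 210, 206 and 252 CPM, a log2 fold change of 1.03 that was 0.92 with upper-quartile scaling and 0.88 without ALK2, under the threshold, as it was without ALKKO1 or ALKKO2. Ccnd2, a D-type cyclin, stood at 6.32, 5.06 and 14.2 against 107, 153 and 125 CPM (-3.91 ± 0.54, edgeR adjusted p = 0.00114), and Ccnd1 and Cdk6 overlapped between the groups. Cdkn2a, which encodes the tumor suppressors INK4A and ARF, stood at 1.01, 13.6 and 16.8 against 0.787, 1.02 and 0.383 CPM. ALK2 and ALK3 were high and ALK1 lay within the ALKKO range, and its call was lost without ALK2, ALK3 or any 1 ALKKO library (edgeR adjusted p = 0.0562 to 0.0997).

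**Figure D3:**
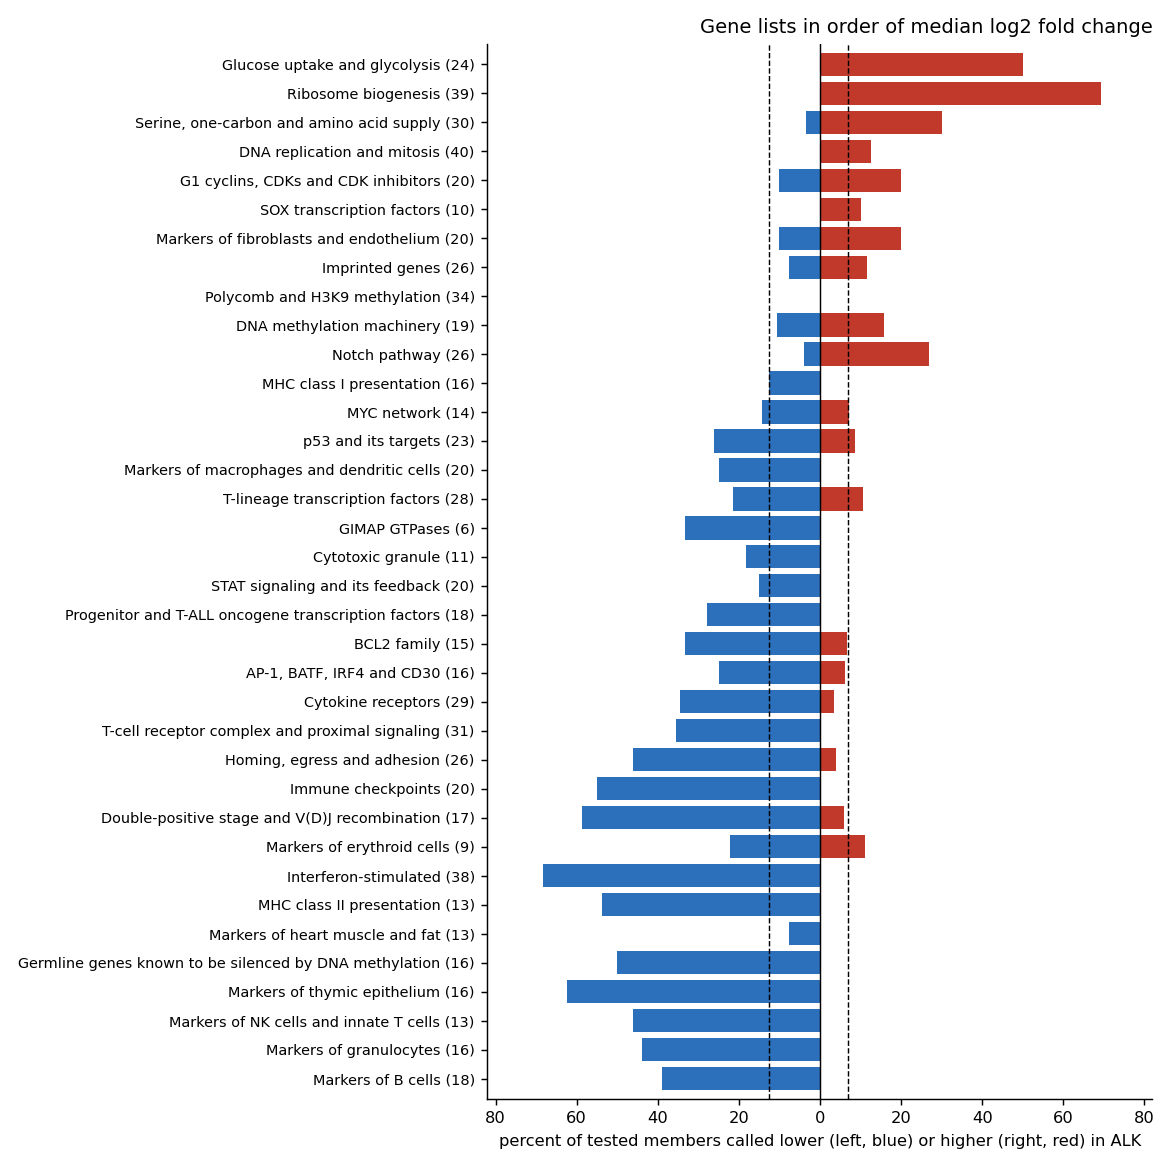
For each of 36 gene lists, the bars give the percent of tested members called lower (left) and higher (right) in ALK than in ALKKO, and dashed lines mark the share over all tested genes, 12.6% lower and 7.03% higher. Ribosome biogenesis (69.2% higher) and glycolysis (50% higher) lie at one end, and interferon-stimulated genes (68.4% lower) and thymic epithelial markers (62.5% lower) at the other.

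Genes of the double-positive stage fell. Of 17 tested 10 were called lower and 1 higher (Cd24a, with overlapping groups), at a median of -1.78. Cd4 stood at 35.3, 27.5 and 116 CPM in the tumors and at 1257, 997 and 1204 CPM in the ALKKO thymi (-4.28 ± 0.56, edgeR adjusted p = 0.000881). Cd8b1 stood at 21.7, 7.25 and 28.8 against 1071, 1150 and 1191 CPM (-5.88 ± 0.55, edgeR adjusted p = 0.000179). Cd8a stood at 10.4, 200 and 292 against 1796, 1512 and 1932 CPM, so that ALK2 and ALK3 kept more of it than of Cd8b1. The call of Cd8a was lost with only the ALK and ALKKO libraries fitted (-3.39, edgeR adjusted p = 0.0727) and with glmTreat. No tumor reached the ALKKO range in any of these coreceptor genes. Rag2, a subunit of the recombinase that cuts receptor genes, stood at 82.1, 26.4 and 11.3 against 247, 285 and 287 CPM. Bcl6 and Satb1, nuclear factors of this stage, fell by 2.99 and 1.99 on the log2 scale. Dntt, which adds untemplated bases at receptor joints, stood at 1605, 2942 and 1054 against 2365, 1975 and 2419 CPM, overlapped and was not called. Rag1 is listed at 0 in every library, thymi included, and gives no value.

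Genes of the T-cell receptor complex were split. Cd3e, Lck and Zap70, which carry receptor signaling, and Bcl11b, which keeps T-lineage identity, were not called. Trbc2, a β chain constant gene, stood at 429, 743 and 643 CPM in the tumors and at 1353, 1298 and 1306 CPM in the ALKKO thymi, a log2 fold change of -1.13 whose call was lost without ALK1 (-0.91), ALK3 or any 1 ALKKO library. Trac, the α chain constant gene, stood at 5.84, 6.55 and 298 CPM in ALK1, ALK2 and ALK3, against 455, 377 and 423 CPM in the thymi. ALK3 kept most of its level and the other tumors next to none. Trac was not called over the 3 tumors (-2.01, edgeR adjusted p = 0.209) and was called without ALK3 (-6.08, edgeR adjusted p = 1.14e-05). Tcf7, a T-lineage factor, was also highest in ALK3, at 32.4, 16.8 and 154 against 197, 240 and 207 CPM, and was called without it (-3.13). Of 66 tested T-cell receptor V segments 45 were called lower and none higher, and in 33 all tumors were at or under the floor. These 33 passed the read filter through thymus libraries alone and could be called only as lower. Of 31 genes of the receptor complex and its proximal signaling 11 were called lower and none higher, at a median of -1.13.

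Genes that receptor signaling induces were among those called lower in this list. Cd5, a receptor that tunes this signaling, stood at 2.22, 0.786 and 2.2 CPM in the tumors and at 225, 175 and 221 CPM in the ALKKO thymi (-6.88 ± 0.40, edgeR adjusted p = 1.09e-05). Cd6, its relative, stood at 1.28, 2.01 and 9.54 against 291, 197 and 284 CPM. Cd69, an early activation marker, stood at 2.55, 1.4 and 4.93 against 95.9, 81 and 71.7 CPM. Nr4a1, an immediate early gene, stood at 2.02, 1.75 and 4.85 against 82.7, 97.1 and 65.8 CPM, and Egr2, a factor induced with it, fell by 2.87 on the log2 scale. In the genes given by library, all tumors lay far below all ALKKO thymi.

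Surface receptors that place and regulate T cells fell too. Of 26 homing and adhesion genes 12 were called lower and 1 higher, at a median of -1.66. Itga4, the α4 integrin, stood at 6.52, 7.42 and 13.8 CPM in the tumors and at 297, 256 and 243 CPM in the ALKKO thymi (-4.84 ± 0.29, edgeR adjusted p = 1.10e-05). Ccr9, the receptor for the thymic chemokine CCL25, stood at 6.92, 2.18 and 70.8 against 723, 704 and 771 CPM. The gene called higher was Cd44, a hyaluronan receptor of early progenitors and memory cells, at 53.6, 1601 and 534 against 61, 63.3 and 63.2 CPM. ALK2 and ALK3 carried this rise, since ALK1 lay below the ALKKO thymi, and without ALK2 the log2 fold change was 2.21 (edgeR adjusted p = 0.0677). The call was also lost without any 1 ALKKO library. Of 20 checkpoint genes 11 were called lower and none higher, at a median of -1.72, with 7 lower without ALK2. Pdcd1, which encodes PD-1, stood at 0.605, 0.175 and 3.21 against 26.3, 35.4 and 32.1 CPM, and its ligand Cd274 at 31.4, 24.1 and 20.8 against 75.7, 60 and 87.4 CPM. Of 29 cytokine receptors 10 were called lower, among them Il2rb (-4.08), Ifngr1 (-2.27) and Ifnar1 (-1.14), and 1 higher, Il12rb2 (1.93), at a median of -0.91, with 6 lower without ALK2. Il7r, which is shut in double-positive cells, stood at 1.28, 117 and 174 against 48.1, 39 and 35.9 CPM, was lowest in ALK1, was not called, and was called higher without ALK1 (1.84, edgeR adjusted p = 0.00647).

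Genes linked to ALK signaling did not rise together. Of 20 genes of STAT signaling 3 were called lower and none higher, at a median of -0.76. The share called lower, 15%, was near the 12.6% of all tested genes. Pim1, a kinase induced by STAT proteins, stood at 35.8, 25.8 and 25.6 CPM in the tumors and at 143, 133 and 109 CPM in the ALKKO thymi (-2.14 ± 0.21, edgeR adjusted p = 0.000208), and the feedback inhibitors Socs1 and Cish fell by 1.61 and 2.63 on the log2 scale. Socs3, a STAT3 target, stood at 192, 50.6 and 182 against 304, 236 and 238 CPM, and at 19.14 to 80.9 CPM without the transgene. It was lower in every tumor than in every ALKKO thymus but did not pass the test (-0.87, edgeR adjusted p = 0.247). Of 16 genes of the AP-1, BATF, IRF4 and CD30 list (median -0.90) Tnfrsf8, which encodes CD30, was called higher, at 77.3, 51.3 and 97.4 against 35, 20.8 and 37 CPM, and its call was lost without ALKKO2 (edgeR adjusted p = 0.0503). Batf3, Irf4, Jund and Tnfsf8 fell by 2.96, 2.31, 1.48 and 3.61 on the log2 scale, and 7 were lower without ALK3. Of 11 cytotoxic granule genes (median -0.71) Srgn and Fasl were called lower and none higher, and Gzma stood at 110, 65 and 437 against 378, 337 and 260 CPM, overlapping.

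Transcription factors gave single genes and no common direction. Sox8, a SOX factor known from neural crest and gonad, stood at 0.537, 932 and 525 CPM in ALK1, ALK2 and ALK3 and at 0.363, 1.08 and 0.447 CPM in the ALKKO thymi. The rise (9.57 ± 1.89, edgeR adjusted p = 0.00524) was that of 2 tumors, since ALK1 lay within the ALKKO range, and Sox8 was the one gene called of 10 tested SOX genes (median 0.45). Runx1, a core T-lineage factor, stood at 687, 643 and 364 against 178, 151 and 189 CPM. With Lef1 and Tcf4 it was 1 of 3 called higher of 28 T-lineage factors, of which 6 were called lower (Zbtb7b, Zbtb16, Foxp3, Eomes, Runx2 and Runx3), at a median of -0.49, with 11 lower without ALK3. Of 18 progenitor and leukemia factors none was called higher and 5 lower (among them Bcl11a, Meis1, Hoxa7 and Flt3; 2 without ALK2 or without ALKKO3; median -0.83), and Lyl1, Lmo2 and Hhex were not called.

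Survival and p53 target genes were mixed. Of 15 BCL2 family genes (median -0.89) the survival gene Bcl2l1 stood at 53.8, 27.6 and 35.3 CPM in the tumors and at 266, 225 and 274 CPM in the ALKKO thymi (-2.71 ± 0.30, edgeR adjusted p = 0.000473), Bbc3, Pmaip1, Bcl2a1a and Bcl2a1d were also called lower, and the death effector Bax rose by 1.11; 3 were called lower without ALKKO1 or without ALKKO3. Bcl2 had an adjusted p of 0.0434 in edgeR's test at -0.89, under the threshold of 1. Of 23 p53 pathway genes 2 were called higher (Bax and Zmat3) and 6 lower (median -0.22); both rises lay under the threshold with library size or upper-quartile scaling (0.99 and 0.91 with the latter) and without ALK2. Among those lower was Trp53inp1, at 171, 358 and 430 against 1207, 1380 and 1207 CPM. In the DNA methylation machinery (19 tested, median 0.02, below 0 with each other scaling) Dnmt1, Zbtb38 and the de novo enzyme Dnmt3b were called higher, the last at 21.2, 33.7 and 32.8 against 10.8, 8.67 and 12.3 CPM, and Zbtb4 and Dnmt3l lower. Dnmt1 is the gene deleted in ALKKO, and its call cannot be told apart from that deletion. Of 34 Polycomb and H3K9 methylation genes 0 were called (median 0.14), although 7 had an adjusted p under 0.05 in edgeR's test at a smaller fold. Of 16 MHC class I presentation genes Tapbp and H2-T23 were called lower (median -0.15), a share of 12.5% against 12.6% of all tested genes. Of 6 GIMAP GTPases Gimap3 and Gimap6 were called lower (median -0.66).

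Interferon-stimulated genes had the largest share called lower of the 36 lists. Interferons induce them in most cells, and their products act against viruses. Of 38 tested 26 (68.4%) were called lower, none was called higher, and all had a log2 fold change below 0, with a median of -2.34. Oasl2, an oligoadenylate synthetase relative, stood at 4.5, 4.71 and 4.54 CPM in the tumors and at 50, 56 and 62 CPM in the ALKKO thymi (-3.61 ± 0.19, edgeR adjusted p = 4.17e-06). Ifi44 stood at 0.269, 0.524 and 1.09 against 38.1, 20.3 and 37.2 CPM, and Ifit1, which binds foreign RNA, at 1.75, 0.611 and 1.41 against 32.4, 30.5 and 36.1 CPM. In these genes the tumors also lay below every thymus without the transgene, at 52.9 to 76.1 CPM for Oasl2, 19.2 to 51.1 CPM for Ifi44 and 24.6 to 87.9 CPM for Ifit1. The mediator Irf9 and the sensors Ifih1 and Ddx58 were not called, and the regulator Irf7 fell by 3.36. Summed over the list, levels were 737 to 928 CPM in ALK, 2110 to 2523 CPM in ALKKO, 1915 to 2077 CPM in Ctrl thymi and 1642 to 5397 CPM in KO thymi, with KO2 the highest. The count of 26 was 16 without ALK2 or without ALKKO3, 17 without ALKKO1 and 14 with glmTreat.

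**Figure D4:**
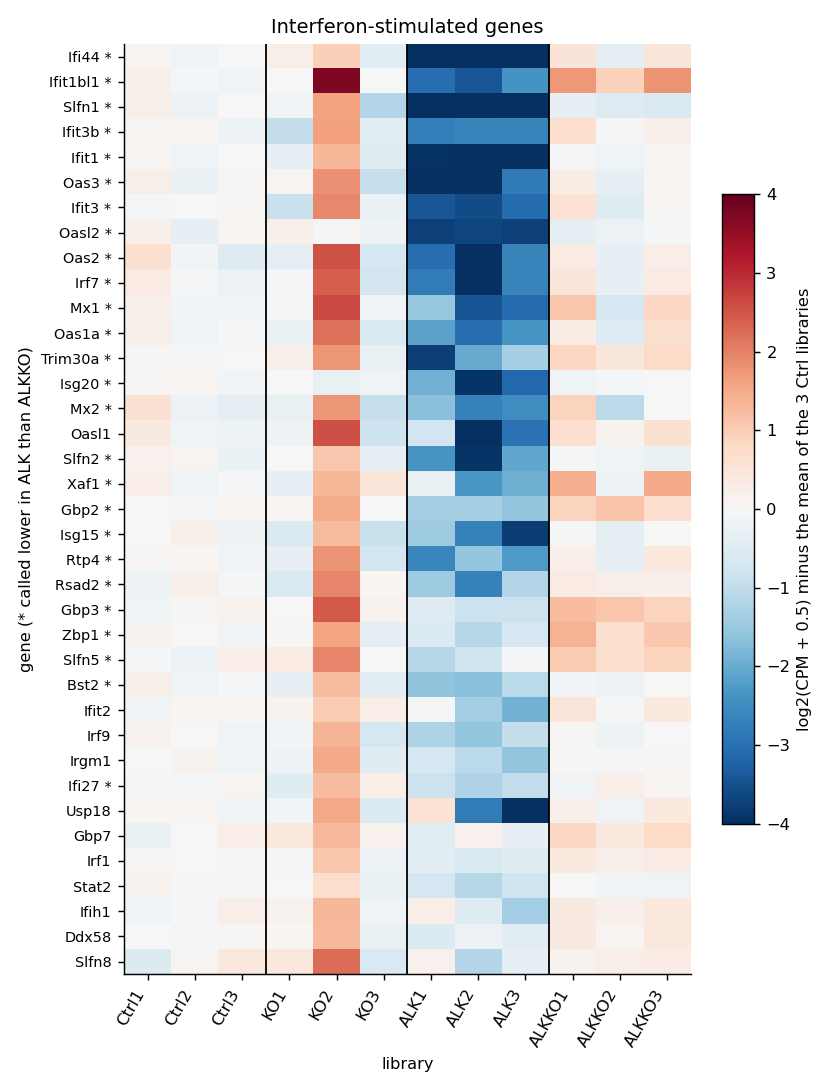
Levels of 37 of the 38 tested interferon-stimulated genes (rows) in the 12 libraries (columns), as log2(CPM + 0.5) minus the mean of the 3 Ctrl libraries, with the color scale ending at 4 in each direction. Nearly all rows are below the Ctrl level in the 3 ALK columns, the ALKKO columns lie near or above it, and KO2 is the highest column; stars mark the 26 genes called lower.

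Promoters of this list often hold the letters of the interferon-stimulated response element, GAAANNGAAA, searched on both strands of the 250 bases before the start site in RefSeq (GRCm38.p6) with the gene values known. Of 30 list members matched to a promoter 17 (56.7%) held it, against 333 of 11812 promoters of all tested genes (2.82%), 20 of 829 of genes called higher (2.41%) and 65 of 1329 of genes called lower (4.89%). The last count includes members of this list. Stretches of 5 promoters whose genes were called lower are shown, in the direction of transcription, with matched letters in capitals.
Isg15, chr4:156200850-156200921, minus strand: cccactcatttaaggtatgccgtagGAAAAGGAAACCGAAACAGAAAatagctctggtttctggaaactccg
Ifit1, chr19:34640760-34640838, plus strand: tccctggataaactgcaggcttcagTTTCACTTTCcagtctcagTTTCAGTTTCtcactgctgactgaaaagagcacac
Ifit3, chr19:34583348-34583441, plus strand: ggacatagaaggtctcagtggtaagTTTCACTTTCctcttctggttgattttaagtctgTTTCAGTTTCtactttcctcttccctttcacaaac
Rsad2, chr12:26456538-26456597, minus strand: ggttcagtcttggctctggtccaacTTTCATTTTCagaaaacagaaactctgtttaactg
Oas1a, chr5:120907526-120907570, minus strand: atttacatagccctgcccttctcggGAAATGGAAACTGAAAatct
In Ifit1, Ifit3 and Rsad2 the match reads on the opposite strand, as TTTCNNTTTC. The 5 genes were chosen after their values were seen, from members whose promoters hold the letters. The promoters of Oasl2, Ifi44 and Irf7, also called lower, did not hold them. Isg15, a ubiquitin-like modifier, stood at 10.3, 4.1 and 1.64 CPM in the tumors and at 28.2, 22.8 and 29.1 CPM in the ALKKO thymi. Ifit3 stood at 0.739, 0.611 and 1.09 against 19.5, 9.09 and 13.3 CPM. Rsad2, the antiviral enzyme viperin, stood at 3.96, 1.4 and 4.93 against 14.9, 14 and 13.5 CPM. No tumor reached an ALKKO thymus in any of them, nor in Oas1a, at 1.88, 0.786 and 1.56 against 12.7, 6.94 and 16.2 CPM. The promoters of Spp1 and Dpp4, both called higher, held the letters too.

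Genes called lower had a lower median number of CG pairs before their start than other genes, given as a description. The median number in these 250 bases was 7 over the 1329 promoters of genes called lower, 15 over the 829 of genes called higher and 16 over the 9654 of genes not called. Promoters with at most 1 pair made up 12.9% of those of genes called lower and 4.55% of all. The E-box letters CACGTG, which MYC can bind and which read alike on both strands, were in 3 of 33 promoters of ribosome biogenesis genes (9.09%), in 4 of 23 of glycolysis genes (17.4%) and in 7.92% of all.

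A part of the germline genes that DNA methylation silences in somatic cells was lower in ALK than in ALKKO. Of 29 listed 16 had enough reads to be tested. Genes read only in thymi that lack Dnmt1 pass that filter through those libraries, so for such genes a fall was fixed beforehand. Of the 16 tested 8 were called lower in ALK and none higher, at a median of -3.09, and 4 of those not called had a log2 fold change above 0. With at least 10 counts required in every library 0 were called lower. The summed level of the 16 was 55.1 to 163 CPM in ALK, with ALK1 inside the ALKKO range of 150 to 178 CPM, and 114 to 135 CPM in the Ctrl thymi. Tuba3b, a testis α-tubulin, stood at 0.134, 0.524 and 0.156 CPM in the tumors and at 23.1, 27.4 and 17.3 CPM in the ALKKO thymi, with 0.0536 to 0.317 CPM in Ctrl thymi, and 5.46 to 6.4 CPM where Dnmt1 alone was deleted. Dazl, a germ cell RNA-binding protein, stood at 0.47, 0.0873 and 0 against 8.72, 11.5 and 9.9 CPM, with 0.0529 to 0.162 CPM in Ctrl thymi and 2.54 to 6.72 CPM in KO thymi. Both were thus highest in the thymi that lack Dnmt1 and near the floor in tumors and Ctrl. Reads of Tuba3b and its near-identical copy Tuba3a cannot be assigned with certainty. The 250 bases before both start sites are shown in the direction of transcription (GRCm38.p6, RefSeq), with each CG pair, the site of DNA methylation, in capitals.
Tuba3b, chr6:145615713-145615962, plus strand: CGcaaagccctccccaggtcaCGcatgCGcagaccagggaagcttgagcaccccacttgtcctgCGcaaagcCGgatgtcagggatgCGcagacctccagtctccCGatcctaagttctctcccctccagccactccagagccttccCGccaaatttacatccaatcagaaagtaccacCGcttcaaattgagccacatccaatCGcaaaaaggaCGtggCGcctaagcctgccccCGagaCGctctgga
Dazl, chr17:50293621-50293870, minus strand: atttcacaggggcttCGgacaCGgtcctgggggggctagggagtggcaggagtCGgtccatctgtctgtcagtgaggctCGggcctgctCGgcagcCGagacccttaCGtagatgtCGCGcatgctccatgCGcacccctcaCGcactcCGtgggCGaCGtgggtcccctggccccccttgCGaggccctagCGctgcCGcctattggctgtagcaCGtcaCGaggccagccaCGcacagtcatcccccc
They hold 14 pairs in Tuba3b and 20 in Dazl, against a median of 15 over all tested genes. Methylation was not measured in these counts.

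Genes low in Ctrl and high in ALKKO were counted among the falls by a strict rule. In 86 of the 2016 genes called lower, the 3 Ctrl thymi lay below all ALKKO thymi with a mean of at most 1/4 of theirs. In 50 of these the KO mean was at least 4 times the Ctrl mean. The 86 are no single kind of gene and include immunoglobulin segments such as Ighv1-55. For some of the 50 the KO mean rested on KO2, as for Ncr1 at 0.318, 9.21 and 0.4 CPM in the KO thymi. The same shares over all tested genes were not counted. Among the 50 was Gh, growth hormone, chosen after its values were seen, at 0.269, 0.262 and 0.156 CPM in the tumors and 23.6, 12.9 and 19.2 CPM in the ALKKO thymi, with 0.211 to 0.536 CPM in Ctrl thymi and 9.82 to 19.3 CPM in KO thymi. Of the 1129 genes called higher, 0 had the mirror pattern, with all Ctrl thymi above ALKKO and a mean at least 4 times theirs.

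The contrast was set against that of Dnmt1 without the transgene by the interaction, (ALK minus ALKKO) minus (Ctrl minus KO), in the same edgeR fit. It was called for 1433 genes (8.93% of those tested), 531 above 0 (3.31%) and 902 below 0 (5.62%). The ALK minus ALKKO difference is itself a term of the interaction, so both tend to share a sign. Of the 1129 genes called higher 1129 had an interaction above 0, and of the 2016 called lower 2011 had it below 0. The interaction was also called, in the same direction, for 42.5% of the 3145 called genes. Named genes with a called interaction included Cd4 (-4.60), Cd8b1 (-6.33), Notch1 (2.81), Myc (1.69), Bcl2l1 (-3.13), Oasl2 (-3.60), Cd5 (-7.03) and Itga4 (-4.38). Dnmt1 (0.47), Cd8a (-3.78, edgeR adjusted p = 0.0621) and Sox8 (9.54, edgeR adjusted p = 0.0615) were not called. The count rests on the controls as well: it was 560 without Ctrl1 and 1618 without KO2.

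Levels were also compared by chromosome. Over 11764 genes of at least 5 CPM, the median log2 difference of each library from the ALKKO mean was taken per chromosome, less the library's own median. Each ALKKO library was compared with the mean of the other ALKKO libraries. In the 9 thymus libraries these medians lay between -0.084 and 0.061. In ALK3, the 472 genes of chromosome 15 had a median of 0.448 and the 406 genes of chromosome 14 a median of 0.289. The same medians were 0.063 and -0.015 in ALK1 and -0.056 and 0.104 in ALK2. All other chromosomes lay between -0.130 and 0.159 in the 3 tumors. Myc lies on chromosome 15 (GRCm38, chr15:61985391-61990374), and its level was the lowest of the 3 tumors in ALK3. DNA copy number was not measured, and its part was not tested.

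**Figure D5:**
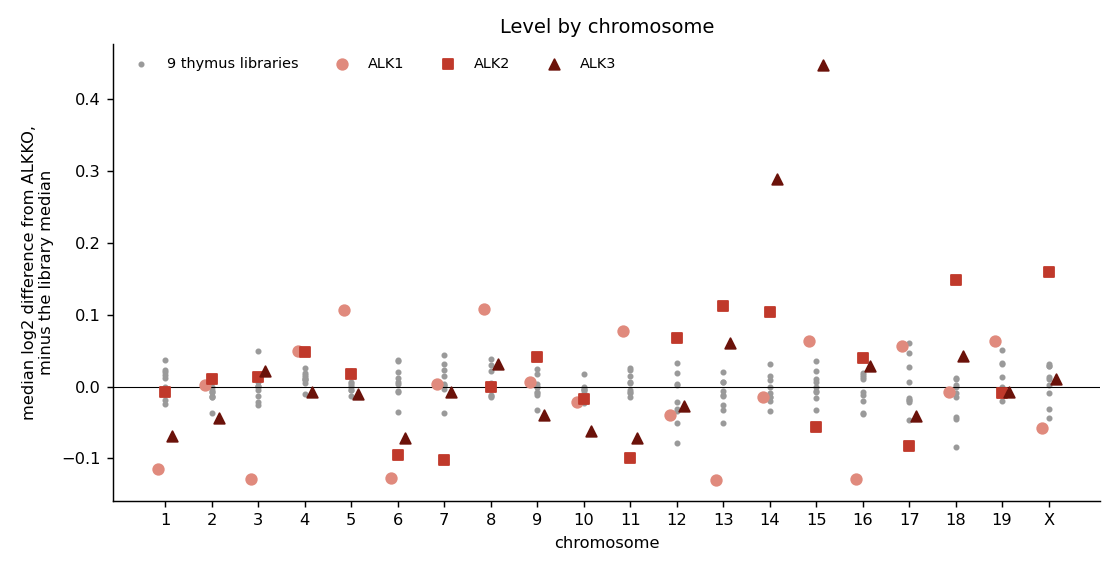
Median log2 difference from the ALKKO mean per chromosome, minus the median of the library, with 1 point per library for the 3 tumors and the 9 thymi. Each ALKKO library was compared with the mean of the other ALKKO libraries. Chromosomes 15 and 14 of ALK3 stand apart at 0.448 and 0.289, and the thymus libraries stay between -0.084 and 0.061.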

How the data were processed

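The authors made stranded libraries from poly-A RNA and read 1 end of each fragment. Per the labels and the study's methods, the authors trimmed reads (Trim Galore), aligned them to mm10 (STAR), with FastQC and Picard 2.19.2 also listed, and counted them per gene with HTSeq; the deposited values are these raw counts. The annotation release and strand setting are not given in the sources used here. Of 50600 gene IDs, 50376 were matched to symbols and positions in GENCODE M21 (GRCm38). The 5 closing lines of each file (reads on no gene, at several places and the like) were left out of library sizes; reads at several places numbered 0.734 to 1.159 lines per gene read in ALK and ALKKO.

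Counts of all 12 libraries were fitted with edgeR 4.0.16 (R 4.3.3): TMM, filterByExpr by group, 1 term per group, robust quasi-likelihood test, Benjamini-Hochberg adjustment over 16052 genes. The study used DESeq2, run here (1.42.0) as an alternative. An exact two-sided permutation test of 3 against 3 cannot go below p = 0.1 and was not used. The script was tested on simulated data. Alternatives were 3 other scalings, 2 count filters, DESeq2, glmTreat, the 2 groups alone, age as covariate, the replicate number as a block, and leaving out each library. The labels give the mice as separate samples.

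Named were the 8 largest rises and falls among called genes of at least 5 CPM that did not overlap, the 6 largest gains and losses in CPM, a list of genes fixed with the design, up to 4 further called members of each gene list by smallest p, and genes of any count of 5 or fewer; others are said to be chosen after their values were seen. Members, gene lists and tests were chosen with earlier results of these data known. No gene list was tested as a set. A few genes are counted in their lists but not reported here by name. Sequences are from RefSeq (GRCm38.p6), with 11812 tested genes matched to a promoter.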

Additional observations from a re-analysis of the deposited data

Results flagged for a closer look

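Reads aligned at more than 1 place, which enter no gene count, averaged 1.072 lines per gene read in ALK (1.007 to 1.159), against 0.802 in ALKKO (0.734 to 0.869), 0.786 in Ctrl and 0.784 in KO, so that all 3 tumors lay above all 9 thymi. Which sequences gave these reads was not tested.

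For the following genes the difference between ALK and ALKKO departed from that between Ctrl and KO by the interaction test of the edgeR fit, given as log2 differences. They were named for the size of their difference between ALK and ALKKO, which is itself a term of the interaction. The list is therefore no independent support for those differences. Above 0 were Igf2 (9.964), Osbp2 (9.418), Adamts20 (8.831), H19 (8.673), Fbp1 (8.177), Ror2 (8.075), Myrfl (7.708), Spp1 (7.097), Dpp4 (3.487) and Notch1 (2.809). Below 0 were Igkv16-104 (-11.652), Shisa6 (-11.147), Igkv4-68 (-11.054), Igkv14-126 (-9.808), Cd8b1 (-6.326), Cd4 (-4.601), Ighm (-3.769), Cd74 (-2.883) and Satb1 (-2.47). The values of the immunoglobulin segments and Shisa6 are fitted against tumors at or near 0 reads and depend on the prior count.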

How the results depend on the processing

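Where not named below, counts of calls stayed within 1.5 times the 3145 reported: 3095 with DESeq2's size factors, 3021 with library size alone, 3038 with upper quartiles, 2971 without a count filter, 2981 with age and 3843 with DESeq2's Wald test. With at least 10 counts in every library 1531 genes were called, 756 higher and 775 lower, and 667 in the interaction; that filter leaves 11930 genes and drops those at 0 in the tumors. With glmTreat 1345 were called (268 higher, 1077 lower; interaction 443), with the 2 groups alone 2049 (683 higher), and with DESeq2's Wald test 2486 in the interaction. Leaving out 1 library gave 2251 to 3719 calls, 686 to 1443 higher and 1565 to 2448 lower; the fewest higher were found without ALKKO1 (742), ALKKO2 (748) or ALKKO3 (686). The interaction ranged from 560 to 2219: 560, 649 and 728 without Ctrl1, Ctrl2 and Ctrl3, 831 without KO3, 716, 842 and 640 without ALKKO1, ALKKO2 and ALKKO3, and 2219 and 2116 without ALK1 and ALK3. Of calls, 35.9% were higher, against 49.4% with 10 counts in every library and 19.9% with glmTreat.

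With the replicate number as a block (replicate block), 2778 genes were called, 927 higher and 1851 lower, and 1118 in the interaction. Deviations from the group means in same-numbered ALK and ALKKO libraries had correlations of -0.067, -0.031 and -0.04, against -0.024 to 0.055 in libraries of unlike number. These values show no pairing by number, but with 3 mice per group they cannot exclude it.

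Of 185 named genes 158 were called, and 47 of these lost the call in at least 1 setting other than glmTreat. The call was lost by 31 with the 2 groups alone and by 60 with glmTreat. When 1 ALK or ALKKO library was left out, 40 lost it (14 to 31 per library). Of the called genes 0 changed sign. Among the 40 are Sft2d2, Dlk1, Gins2, Irf4, Zbtb38, Dnmt3l, Epb42, Acta2, Col1a2 and Dcn, each lost without any of at least 3 libraries. Of those not called, 11 were called in some setting and 4 changed sign: Ezh2 with upper quartiles (-0.001; -0.054 to 0.277 without 1 library), Il2ra with age (0.251; -0.675 to 0.308), Alk (-0.321 to 0.001) and Dntt (-0.773 to 0.006). Of 792 medians of the 36 lists compared, 42 moved beyond the spread between replicates. In 17 the sign differed from that reported, all in 4 lists: DNA methylation machinery (-0.098 to 0.139 over settings, below 0 with each other scaling), imprinted genes (-0.138 to 0.413), the Notch pathway (-0.227 to 0.134) and MHC class I presentation (-0.716 to 0.065). With 3 mice per group and tumors that vary more than thymi, an uncalled gene may still differ; 4506 genes had an edgeR adjusted p under 0.05 at any fold.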

Other observations

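Some genes give no value here because they are listed at 0 in every compared library, thymi included: Rag1, Il2rg, Igtp, Gimap1, Gimap7, Igkc, Cdt1 and Cbx6. Besides, 2 genes had low levels in Ctrl and tumors and high levels in ALKKO, and were chosen after their values were seen. Noct, a phosphatase with circadian expression, stood at 47.8, 39.1 and 35 CPM in the tumors, 451, 427 and 273 CPM in the ALKKO thymi, 39.3 to 72.7 CPM in Ctrl thymi and 134 to 195 CPM in KO thymi. Wdr49 stood at 0.0672, 0 and 0.547 CPM in the tumors, 32.6, 30.8 and 34 CPM in the ALKKO thymi and 0.159 to 0.482 CPM in Ctrl, and in KO at 0.371, 7.92 and 0.202 CPM, so that it was high in ALKKO and, among KO, in KO2 alone.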
